A study of Mus musculus with 13 samples.

Results

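A list of 40 transcription factors and cofactors of the forebrain and cortical layers was followed in single excitatory neurons of the mouse claustrum, the thin sheet of neurons between the insular cortex and the striatum. The genes were chosen by name, with earlier results of these data known, and 38 of them had a row among the 23427 genes of the count tables. Cux2 and Pou3f1 had no row under those symbols and were not analysed here, and Emx2 was listed for the projection mice alone. Levels were summed over cells of each mouse, so that the replicate was the mouse and not the cell.

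Cells were drawn by hand, under a microscope, from claustral microdissections of 4 wild-type, mature male C57BL/6 mice. In 3 mice (the projection mice), green retrobeads had been placed in the lateral entorhinal cortex (LEC) and red retrobeads in the retrosplenial cortex (RSC), so that a cell was RSC, LEC or unlabeled. In the other mouse (the blindly sampled mouse), rAAV2-retro-CAG-GFP in the anterior cingulate cortex had guided the dissection and cells were taken without regard to a label, so all of them count as unlabeled. An unlabeled cell may still project to either target, since a tracer does not reach every projecting cell. Of 1112 harvested cells, 1011 had at least 1 count of Snap25, a synaptic protein of neurons, and of Slc17a7, a vesicular glutamate transporter, and were kept. They comprised 247 RSC, 286 LEC and 478 unlabeled cells.

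The kept cells were split by 2 genes that are not on the list. The 438 cells with at least 200 CPM (a count scaled to a common library total) of Synpr, a synaptic vesicle protein, are called Synpr-high. The 359 further cells with at least 20 CPM of Slc30a3, the vesicular zinc transporter, are called Slc30a3-high, and the remaining 214 are called the rest. Few cells lay near a boundary, 21 having Synpr between 100 and 400 CPM and 19 having Slc30a3 between 10 and 40 CPM, and 5 Slc30a3-high cells of the blindly sampled mouse entered on a single count. The 6 core-like marker genes (Synpr, Gnb4, Lxn, Gfra1, Nr4a2 and Slc17a6) summed to 6052 to 6581 CPM in Synpr-high cells and to no more than 783 CPM elsewhere. The 3 shell-like genes (Slc30a3, Nnat and Spon1) summed to 955 to 1897 CPM in Slc30a3-high cells against 50.7 to 104 CPM in Synpr-high cells. Synpr and Slc30a3 themselves cut the classes, so their part of these sums was fixed by the rule. Of the 3 shell-like genes, 1 was called higher in Slc30a3-high cells than in the rest. A call of Slc30a3 itself would be fixed by the rule there, so this count is no support for the class. The rest held 207 to 1596 CPM of the shell-like genes and stood apart by deep-layer markers, with 514 to 846 CPM summed over 7 layer 6a genes against at most 197 CPM in the other classes. It held 58 of the 286 LEC cells and 12 of the 247 RSC cells. Being defined by low Synpr and Slc30a3 alone, it may mix deep-layer cells with shell-like cells under the Slc30a3 threshold. How far such mixing affects comparisons with the rest was not tested. Median totals per cell were 26023 counts in the blindly sampled mouse and 138535 to 154262 in the projection mice. Mouse, tracer and depth cannot be told apart there.

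Cortical excitatory neurons take on layer identities under factors that hold each other in check. Fezf2, Bcl11b, Tbr1, Sox5 and Foxp2 belong to the deep layers, where cells project to the thalamus, brainstem and spinal cord, while Cux and POU homeobox factors are used in upper-layer cells that project within the cortex. Neurod, Emx, Lhx2 and nuclear factor I genes act earlier, in building the dorsal telencephalon, and several stay on in adult neurons. The claustrum lies beside the deepest layers of the insular cortex.

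Reference sequence upstream of 4 members is shown because these genes were called in both comparisons of Synpr-high cells below, Cux1 and Id2 as higher there and Fezf2 and Bcl11b as lower (chosen after their values were seen). Each window holds the 150 bases before the RefSeq start on the minus strand of build GRCm38.p6, which differs from the build NCBIM37 named in the submitters' processing notes. The windows lie at chr5:136565982-136566131 for Cux1, chr12:25096093-25096242 for Id2, chr14:12345866-12346015 for Fezf2 and chr12:108003415-108003564 for Bcl11b. They are written 5′ to 3′, and capitals mark CCAAT on either strand.
Cux1: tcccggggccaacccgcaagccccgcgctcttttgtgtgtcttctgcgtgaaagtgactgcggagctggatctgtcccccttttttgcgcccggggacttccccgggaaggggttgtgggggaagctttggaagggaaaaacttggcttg
Id2: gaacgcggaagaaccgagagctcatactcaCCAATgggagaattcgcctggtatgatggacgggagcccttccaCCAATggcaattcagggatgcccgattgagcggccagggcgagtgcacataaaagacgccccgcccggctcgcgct
Fezf2: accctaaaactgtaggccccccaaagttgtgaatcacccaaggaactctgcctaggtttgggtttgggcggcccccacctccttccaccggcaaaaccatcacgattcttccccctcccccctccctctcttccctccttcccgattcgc
Bcl11b: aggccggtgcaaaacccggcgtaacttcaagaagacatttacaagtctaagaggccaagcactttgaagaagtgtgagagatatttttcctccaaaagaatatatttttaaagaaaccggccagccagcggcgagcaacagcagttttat
CCAAT, the sequence after which Cux1 was once named the CCAAT displacement protein, occurred 2 times in the Id2 window and in none of the other 3. It was present in 24.5% of all 32851 promoter windows of the table and in 11 of the 45 windows (24.4%) that belong to 30 members. CANNTG, the E-box that Neurod factors bind, was in 47.7% of all windows and in none of the 4. Windows of Cux1, Id2 and Fezf2 were 60.7%, 60% and 58.7% G or C against a median of 54%, and that of Bcl11b was 43.3%. These matches describe the letters of a window and were not tied to any level below.

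Of the 38 genes, 36 passed the filter on low counts and were tested (edgeR quasi-likelihood test on counts summed per mouse and class, with p adjusted over all 13104 genes tested, a gene being called at an adjusted p under 0.05). Between Synpr-high and Slc30a3-high cells 15 of the 36 were called, 6 higher and 9 lower in Synpr-high cells, where 6.71% of all tested genes were called (3.28% higher and 3.43% lower). Between Synpr-high cells and the rest 19 were called, 8 higher and 11 lower, against 8.97% of all genes (4.24% higher and 4.74% lower). Between Slc30a3-high cells and the rest 2 were called, both lower in Slc30a3-high cells, against 0.778% of all genes (0.298% higher and 0.481% lower). The 2 comparisons with Synpr-high cells share those cells. The median log2 fold change over the 36 was 0.06, -0.15 and -0.40 in the 3 comparisons, beside 0.01, 0.01 and 0.00 over all tested genes. Levels below are normalized CPM (trimmed mean of M values) and 4 values in a row belong to the blindly sampled mouse and to projection mice 1, 2 and 3. The plot of levels by class shows every tested member.

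**Figure D1:**
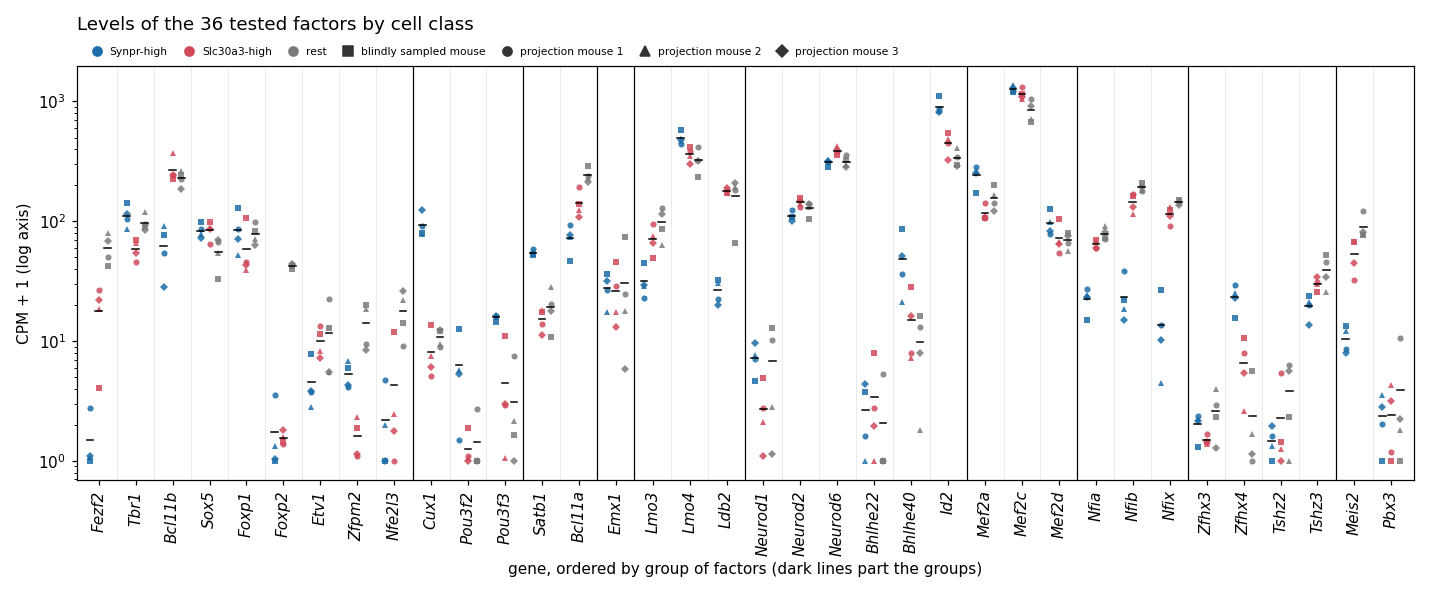
Levels of the 36 tested factors, with 1 point per mouse (shape) and class (colour) and a black bar at the mean of 4 mice, on a log axis of CPM + 1. Foxp2 sits at 38.9 to 42.9 CPM in the rest and under 3 CPM elsewhere, and Cux1 at 76.9 to 122 CPM in Synpr-high cells and under 13 CPM elsewhere.

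Of the 9 deep-layer identity regulators, 4 were called between Synpr-high and Slc30a3-high cells (Tbr1 and Zfpm2 higher, Fezf2 and Bcl11b lower) and 3 between Synpr-high cells and the rest (Fezf2, Bcl11b and Foxp2, all lower). Fezf2, a zinc-finger factor that directs subcerebral projection neuron identity, stood at 0, 1.77, 0.0822 and 0.109 CPM in Synpr-high cells, at 3.04, 25.8, 17.6 and 20.8 CPM in Slc30a3-high cells and at 41.6, 49.2, 79.2 and 67.6 CPM in the rest. The 3 classes did not overlap, with the rest highest and Synpr-high cells near 0 in every mouse, their 36 counts in all coming almost entirely (32) from projection mouse 1. It was lower in Synpr-high than in Slc30a3-high cells (log2 fold change -4.85 ± 0.83 (SE), adjusted p = 0.00233) and than in the rest (log2 fold change -6.64 ± 0.87 (SE), adjusted p = 0.000266). The step from Slc30a3-high cells to the rest, -1.79 ± 0.67 on the log2 scale, was lower in 4 of 4 mice and did not pass the test (adjusted p = 0.34).

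Bcl11b, also known as Ctip2, acts downstream of Fezf2 in layer 5 neurons. Its level was 75.2, 53.2, 89.6 and 27.4 CPM in Synpr-high cells, 226, 243, 368 and 241 CPM in Slc30a3-high cells and 241, 223, 262 and 184 CPM in the rest. Synpr-high cells lay below both other classes in every mouse, by 4.41-fold against Slc30a3-high cells (log2 fold change -2.14 ± 0.30 (SE), adjusted p = 0.000449) and by 3.72-fold against the rest (log2 fold change -1.895 ± 0.29 (SE), adjusted p = 0.000954). Slc30a3-high cells and the rest overlapped (log2 fold change 0.25 ± 0.28 (SE), adjusted p = 0.912). In Slc30a3-high cells Bcl11b thus overlapped with the rest, while Fezf2 lay between the other classes. In cells thinned to 20000 counts each, 227 of 331 Slc30a3-high cells had a count of Bcl11b without one of Fezf2, 41 had both and 13 had Fezf2 alone, whereas among 190 cells of the rest 89, 63 and 10 did so.

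Foxp2, a forkhead factor of corticothalamic neurons, was at 38.9, 42.9, 41.2 and 42.9 CPM in the rest, at 0, 2.54, 0.329 and 0.0365 CPM in Synpr-high cells and at 0.435, 0.39, 0.596 and 0.821 CPM in Slc30a3-high cells. The rest was narrow in its range over mice and did not overlap with either other class. The gene was lower in Synpr-high cells (log2 fold change -5.62 ± 0.86 (SE), adjusted p = 0.000835) and in Slc30a3-high cells (log2 fold change -6.08 ± 0.90 (SE), adjusted p = 0.00503) than in the rest. The second of these calls was lost without projection mouse 2 (adjusted p = 0.0963), with a log2 fold change of -6.08. After thinning, Foxp2 had a count in 27.5% ± 1.06 of the rest (mean over 4 mice ± SD) and in 0.581% ± 0.672 of Synpr-high and 1.36% ± 0.962 of Slc30a3-high cells. Without thinning the shares were 33.6%, 1.83% and 2.79% of all cells. Among 190 thinned cells of the rest, 29 had counts of both Foxp2 and Fezf2, 44 of Fezf2 alone, 23 of Foxp2 alone and 94 of neither, where a count of 0 does not show that a cell lacks the gene.

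Zfpm2 (Fog2), a GATA cofactor, was ordered otherwise, at 0.869, 0.0975, 1.32 and 0.145 CPM in Slc30a3-high cells, 4.91, 3.15, 5.83 and 3.28 CPM in Synpr-high cells and 19.1, 8.53, 17.4 and 7.43 CPM in the rest. No mouse of one class reached a mouse of another. The Slc30a3-high values of Zfpm2 stand on 2, 1, 20 and 3 counts, with a count in 1.39% of those cells, so its folds against that class lie near the floor. It was lower in Slc30a3-high cells than in Synpr-high cells (the log2 fold change of Synpr-high over Slc30a3-high cells was 2.87 ± 0.75, adjusted p = 0.0316) and than in the rest (log2 fold change -4.47 ± 0.78 (SE), adjusted p = 0.0131). Both calls were lost on leaving out the blindly sampled mouse (adjusted p = 0.0766 and 0.0813), projection mouse 1 (0.138 without it in the first and 0.101 in the second) or projection mouse 3 (0.149 and 0.107), and the second also without projection mouse 2 (0.0768). The first was further lost in thinned cells (0.113) and among unlabeled cells (0.311). Layer 6a markers moved with these genes, 6 of 7 (Foxp2 among them) being lower in Synpr-high cells and 4 of 7 lower in Slc30a3-high cells than in the rest. Layer 6b markers summed to 38.7 to 1417 CPM in the rest and to at most 11.3 CPM in the other classes. Astrocyte markers summed to 249 to 801 CPM in the rest against 77.6 to 217 CPM elsewhere, led by Slc1a2. The part of these 3 lists in the differences was not tested.

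Tbr1, a T-box factor of layer 6 and of early-born cortical neurons, followed another order. It was at 140.0, 104, 85 and 114 CPM in Synpr-high cells, 69.1, 45.1, 65.2 and 53.5 CPM in Slc30a3-high cells and 88.4, 94.8, 118 and 83.1 CPM in the rest. Synpr-high cells exceeded Slc30a3-high cells by 1.9-fold without overlap (log2 fold change 0.93 ± 0.19 (SE), adjusted p = 0.00869) and overlapped with the rest (log2 fold change 0.20 ± 0.19 (SE), adjusted p = 0.68). The call was lost without projection mouse 1 (adjusted p = 0.096), without projection mouse 3 (0.109) and among unlabeled cells alone (0.244). Sox5, Foxp1, Etv1 and Nfe2l3 were not called in any class comparison. Sox5, a factor that times the output of deep-layer neurons, lay between 63.3 and 97.3 CPM in Synpr-high and Slc30a3-high cells and between 31.7 and 68.5 CPM in the rest. Foxp1 ranged from 38.2 to 129 CPM over all classes and mice, Etv1, an ETS factor of layer 5, from 1.81 to 21.6 CPM, and Nfe2l3 from 0 to 25.3 CPM.

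The upper-layer homeobox factor Cux1 was higher in Synpr-high cells than in both other classes. Synpr-high cells held 79.2, 89.7, 76.9 and 122 CPM, Slc30a3-high cells 12.6, 4.1, 6.56 and 5.02 CPM and the rest 11.2, 7.96, 8.45 and 11.3 CPM. Every mouse had its Synpr-high cells above both other classes, by 13.9-fold (log2 fold change 3.795 ± 0.33 (SE), adjusted p = 1.05e-05) and 9.57-fold (log2 fold change 3.26 ± 0.32 (SE), adjusted p = 2.05e-05). The other classes overlapped (log2 fold change -0.54 ± 0.32 (SE), adjusted p = 0.65). Thinned cells with a count of Cux1 made up 52.2% ± 7.8 of Synpr-high, 5.95% ± 4.72 of Slc30a3-high and 8.39% ± 4.18 of the rest, and all cells 66.7%, 9.47% and 14%. The POU factors Pou3f2 and Pou3f3 (Brn2 and Brn1), which act with Cux genes in upper-layer neurons, were not called between classes. Pou3f3 was at 13.5, 15.2, 15 and 15.2 CPM in Synpr-high cells, 9.995, 1.95, 0.0662 and 1.98 CPM in Slc30a3-high cells and 0.66, 6.48, 1.16 and 0 CPM in the rest. Its Synpr-high values lay above every value of the other classes, with adjusted p = 0.331 and 0.183. Pou3f2 was at 11.7, 0.497, 4.77 and 4.27 CPM in Synpr-high cells and at no more than 1.71 CPM in any sum of the other classes, which overlapped with it (adjusted p = 0.0927 and 0.208).

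Satb1 and Bcl11a went in opposite directions. Satb1, a chromatin organizer, was at 51.3, 57.4, 52.2 and 53.7 CPM in Synpr-high cells, 16.5, 12.8, 17.3 and 10.3 CPM in Slc30a3-high cells and 9.9, 19.2, 27.5 and 16.8 CPM in the rest. Its Synpr-high level varied little over mice and lay above both other classes in all 4, by 3.8-fold (log2 fold change 1.93 ± 0.28 (SE), adjusted p = 0.000582) and 2.87-fold (log2 fold change 1.52 ± 0.27 (SE), adjusted p = 0.00289). Among unlabeled cells alone the step to the rest missed the threshold (adjusted p = 0.0667). Cux1 and Satb1 were seen together in 102 of 406 thinned Synpr-high cells, while 117 had Cux1 alone, 75 Satb1 alone and 112 neither. Bcl11a (Ctip1), a subunit associated with the BAF chromatin remodeller, was at 45.4, 92.2, 72.6 and 75.5 CPM in Synpr-high cells, 137, 192, 123 and 107 CPM in Slc30a3-high cells and 288, 238, 227 and 211 CPM in the rest. No class overlapped with another, and Synpr-high cells were lower than Slc30a3-high cells (log2 fold change -0.96 ± 0.22 (SE), adjusted p = 0.015) and than the rest (log2 fold change -1.75 ± 0.22 (SE), adjusted p = 0.000207). The first call was lost without projection mouse 1, 2 or 3 (adjusted p = 0.0581, 0.0875 and 0.0624), and the step from Slc30a3-high cells to the rest had adjusted p = 0.145.

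All 3 nuclear factor I genes, which pair with each other on DNA and act in neuron and glia maturation, were lower in Synpr-high cells than in either other class. Nfia was at 14.1, 26.2, 23.3 and 22.4 CPM in Synpr-high cells, 68.7, 59.4, 67.6 and 58.9 CPM in Slc30a3-high cells and 71.9, 70.1, 89.8 and 79.7 CPM in the rest. Synpr-high cells were 2.93-fold and 3.6-fold lower (adjusted p = 0.000187 and 3.39e-05). Nfib was at 20.9, 37.5, 17.7 and 13.9 CPM in Synpr-high cells, 162, 169, 113 and 132 CPM in Slc30a3-high cells and 209, 178, 182 and 193 CPM in the rest. It was 6.38-fold (log2 fold change -2.67 ± 0.27 (SE), adjusted p = 3.29e-05) and 8.46-fold lower (log2 fold change -3.08 ± 0.27 (SE), adjusted p = 8.41e-06). Nfix was at 25.5, 12.7, 3.45 and 9.27 CPM in Synpr-high cells, 123, 89.9, 130.3 and 109 CPM in Slc30a3-high cells and 150.5, 143, 151 and 137 CPM in the rest. Here Synpr-high cells were 9.27-fold (log2 fold change -3.21 ± 0.42 (SE), adjusted p = 0.000273) and 11.9-fold lower (log2 fold change -3.58 ± 0.42 (SE), adjusted p = 0.000104). For none of the 3 did a Synpr-high value reach the lowest value of another class, in any mouse. Slc30a3-high cells were also below the rest in 4 of 4 mice for each gene, with differences of -0.29 ± 0.19, -0.41 ± 0.25 and -0.36 ± 0.38 on the log2 scale, without passing the test (adjusted p = 0.693, 0.673 and 0.885). Counted within thinned cells, none of the 3 genes was seen in 243 of 406 Synpr-high cells (59.9%), in 20 of 331 Slc30a3-high cells (6.04%) and in 6 of 190 cells of the rest (3.16%). All 3 had a count in 0.739%, 22.96% and 34.2% of the cells respectively. Cux1 and Nfib were seen together in 35 of 406 Synpr-high cells, 184 having Cux1 alone and 37 Nfib alone, and 208 of 331 Slc30a3-high cells had Nfib alone.

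**Figure D2:**
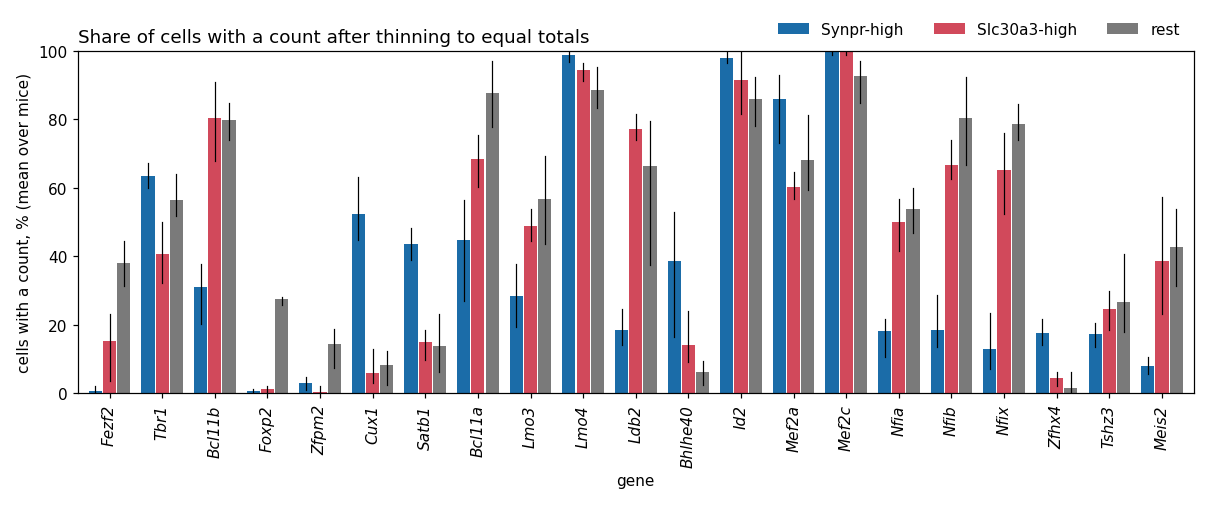
Percentage of cells with at least 1 count of each of the 21 members called in a class comparison, after thinning to 20000 counts per cell, with bars at the mean over 4 mice and lines from the lowest to the highest mouse. Nfia, Nfib and Nfix are seen in 18.1%, 18.5% and 12.97% of Synpr-high cells, below both other classes.

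Of the 3 LIM cofactors, Ldb2 and Lmo3 were lower and Lmo4 was higher in Synpr-high cells than in the rest. Ldb2, which bridges LIM-homeodomain proteins, was at 31.6, 21.4, 29.8 and 19 CPM in Synpr-high cells, 171, 182, 171 and 190.4 CPM in Slc30a3-high cells and 64.7, 181, 191 and 209 CPM in the rest. Synpr-high cells were lowest in every mouse, 7.06-fold below Slc30a3-high cells (log2 fold change -2.82 ± 0.30 (SE), adjusted p = 6.44e-05) and 6.42-fold below the rest (log2 fold change -2.68 ± 0.30 (SE), adjusted p = 5.9e-05). The blindly sampled mouse held the lowest level of the rest, and Slc30a3-high cells lay inside the range of the rest. Lmo3, a LIM-only protein that competes for such bridges, was at 44.2, 21.8, 27.7 and 28.4 CPM in Synpr-high cells, 48.2, 94.5, 75.1 and 64.8 CPM in Slc30a3-high cells and 85.1, 128, 62.8 and 114 CPM in the rest. It was lower in Synpr-high cells than in Slc30a3-high cells (log2 fold change -1.23 ± 0.28 (SE), adjusted p = 0.0141) and than in the rest (log2 fold change -1.69 ± 0.28 (SE), adjusted p = 0.00159). The first call was lost without projection mouse 1, 2 or 3 (adjusted p = 0.15, 0.0967 and 0.119) and in unlabeled cells, where the log2 fold change was -0.40 (adjusted p = 0.752). Lmo4, a LIM-only protein of cortical neurons, was higher in Synpr-high cells, at 491 ± 61.1 CPM (SD, n = 4), than in the rest, at 322 ± 73.7 CPM (log2 fold change 0.61 ± 0.16 (SE), adjusted p = 0.0308). This call was lost without the blindly sampled mouse (adjusted p = 0.0762), projection mouse 2 (0.153) or projection mouse 3 (0.148).

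Of the 6 genes of the bHLH group, Id2 was called against both other classes and Bhlhe40 against the rest. Id2, which binds bHLH proteins and keeps them off DNA, was at 1111, 857, 830.0 and 815 CPM in Synpr-high cells, 549, 447, 485 and 324 CPM in Slc30a3-high cells and 296, 345, 412 and 290.4 CPM in the rest. Synpr-high cells held more in every mouse, 2.002-fold over Slc30a3-high cells (log2 fold change 1.001 ± 0.17 (SE), adjusted p = 0.00206) and 2.69-fold over the rest (log2 fold change 1.43 ± 0.17 (SE), adjusted p = 0.000108). Bhlhe40, a repressor that responds to activity and stress, was at 84.4, 35.1, 20.2 and 50.8 CPM in Synpr-high cells, 27.4, 7.02, 6.16 and 15.3 CPM in Slc30a3-high cells and 15.2, 12.2, 0.828 and 7.02 CPM in the rest. It was higher in Synpr-high cells than in the rest (log2 fold change 2.497 ± 0.70 (SE), adjusted p = 0.0379). That call was lost without the blindly sampled mouse (adjusted p = 0.063), projection mouse 1 (0.116) or projection mouse 3 (0.236) and in unlabeled cells (0.0743). Against Slc30a3-high cells it was higher in 4 of 4 mice with adjusted p = 0.147, and passed with the mouse as a block (0.0102).

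The neuronal bHLH factors Neurod2 and Neurod6, which drive and keep excitatory identity, were detected in every sum per class and mouse. Neurod6 ranged from 282 to 424 CPM and Neurod2 from 100.4 to 156 CPM over those sums, and Slc30a3-high cells were above Synpr-high cells in 4 of 4 mice for both. The differences of Synpr-high from Slc30a3-high cells, -0.33 ± 0.11 and -0.38 ± 0.13 on the log2 scale, missed the threshold (adjusted p = 0.092 and 0.121), and that of Neurod6 passed with the mouse as a block (0.0397). Over the same sums Neurod1 lay between 0.0966 and 11.9 CPM and Bhlhe22 between 0 and 6.95 CPM. Emx1, a homeobox gene of dorsal telencephalon, lay between 4.82 and 72.6 CPM with its whole range inside the rest. Lhx2, a LIM-homeobox gene, had 9 counts in all in Slc30a3-high cells and 2 in each other class, Emx2 had 1 count in all, and neither was tested.

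Mef2c, an activity-dependent factor that limits excitatory synapse number, was at 1268 ± 77.9 CPM (SD, n = 4) in Synpr-high cells, 1152 ± 112 CPM in Slc30a3-high cells and 840.5 ± 180.4 CPM in the rest. It was higher in Synpr-high cells than in the rest (log2 fold change 0.59 ± 0.13 (SE), adjusted p = 0.0125), without overlap, although not without projection mouse 2 (adjusted p = 0.12) or 3 (0.0837). Slc30a3-high cells exceeded the rest in 4 of 4 mice, which did not pass the test (adjusted p = 0.173) but did with the mouse as a block (0.0493), in thinned cells and among unlabeled cells. Mef2a was at 173, 283, 262 and 251 CPM in Synpr-high cells, 105, 142, 111 and 105 CPM in Slc30a3-high cells and 199, 142, 166 and 120.3 CPM in the rest. It was higher in Synpr-high than in Slc30a3-high cells (log2 fold change 1.07 ± 0.19 (SE), adjusted p = 0.00301), with adjusted p = 0.055 without projection mouse 2. Against the rest it was at the threshold (adjusted p = 0.0496), overlapped, and was lost without projection mouse 1 (0.271), 2 (0.213) or 3 (0.307). Among unlabeled cells the log2 fold change against the rest was 0.04 (adjusted p = 0.972), and the gene was called in 8 of 16 alternatives. Mef2d lay between 53.05 and 126 CPM and was not called.

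Of the zinc-finger homeobox and teashirt factors, Zfhx4 and Tshz3 were called, both between Synpr-high cells and the rest. Zfhx4 was at 14.7, 28.5, 24.1 and 21.9 CPM in Synpr-high cells, 9.56, 6.92, 1.59 and 4.4 CPM in Slc30a3-high cells and 4.62, 0, 0.662 and 0.138 CPM in the rest. Synpr-high cells were above the other classes in all mice, with log2 fold change 4.86 ± 1.02 (SE), adjusted p = 0.00773 against the rest and adjusted p = 0.182 against Slc30a3-high cells. The former was lost without projection mouse 1 (adjusted p = 0.0704), 2 (0.073) or 3 (0.0938). Its level in the rest stands on 7, 0, 4 and 1 counts, with a count in 1.87% of those cells, so the fold against the rest lies near the floor. Tshz3 was at 22.7, 19.2, 20.3 and 12.6 CPM in Synpr-high cells, 24.8, 29.8, 28.8 and 33.1 CPM in Slc30a3-high cells and 51.5, 44.8, 24.8 and 33.2 CPM in the rest. It was lower in Synpr-high cells than in the rest (log2 fold change -1.04 ± 0.26 (SE), adjusted p = 0.0212), except without projection mouse 1 (adjusted p = 0.163) or 3 (0.122). Zfhx3 and Tshz2 reached at most 5.34 CPM in any sum per class and mouse.

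Meis2, a TALE homeobox factor also used in striatal neurons, was at 12.3, 7.62, 11.1 and 7.01 CPM in Synpr-high cells, 66.1, 31.3, 67.8 and 43.6 CPM in Slc30a3-high cells and 75.9, 119.7, 77.2 and 79.97 CPM in the rest. The classes were ordered without overlap, and Synpr-high cells were 5.56-fold below Slc30a3-high cells (log2 fold change -2.48 ± 0.29 (SE), adjusted p = 0.000128) and 9.46-fold below the rest (log2 fold change -3.24 ± 0.30 (SE), adjusted p = 1.12e-05). Striatal projection neuron markers overlapped between classes, summing over 11 genes to 163 to 249 CPM in Synpr-high, 201 to 257 CPM in Slc30a3-high and 205 to 299 CPM in the rest, with 1 of 9 tested genes higher and 1 lower in each comparison of Synpr-high cells. Its partner family member Pbx3 lay between 0 and 9.66 CPM. Markers of interneurons ranged widely within every class, up to 1174 CPM in a sum, mostly Npy, and Gad1 and Gad2 were detected together in 4 cells. Gad1, Gad2, Slc32a1, Sst and Pvalb were listed for the projection mice alone, so cells of the blindly sampled mouse could not be screened by them. Without those 4 cells, an alternative chosen after seeing the data, 15 and 18 members were called in the comparisons with Synpr-high cells. The call lost was Mef2a against the rest (adjusted p = 0.0517).

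**Figure D3:**
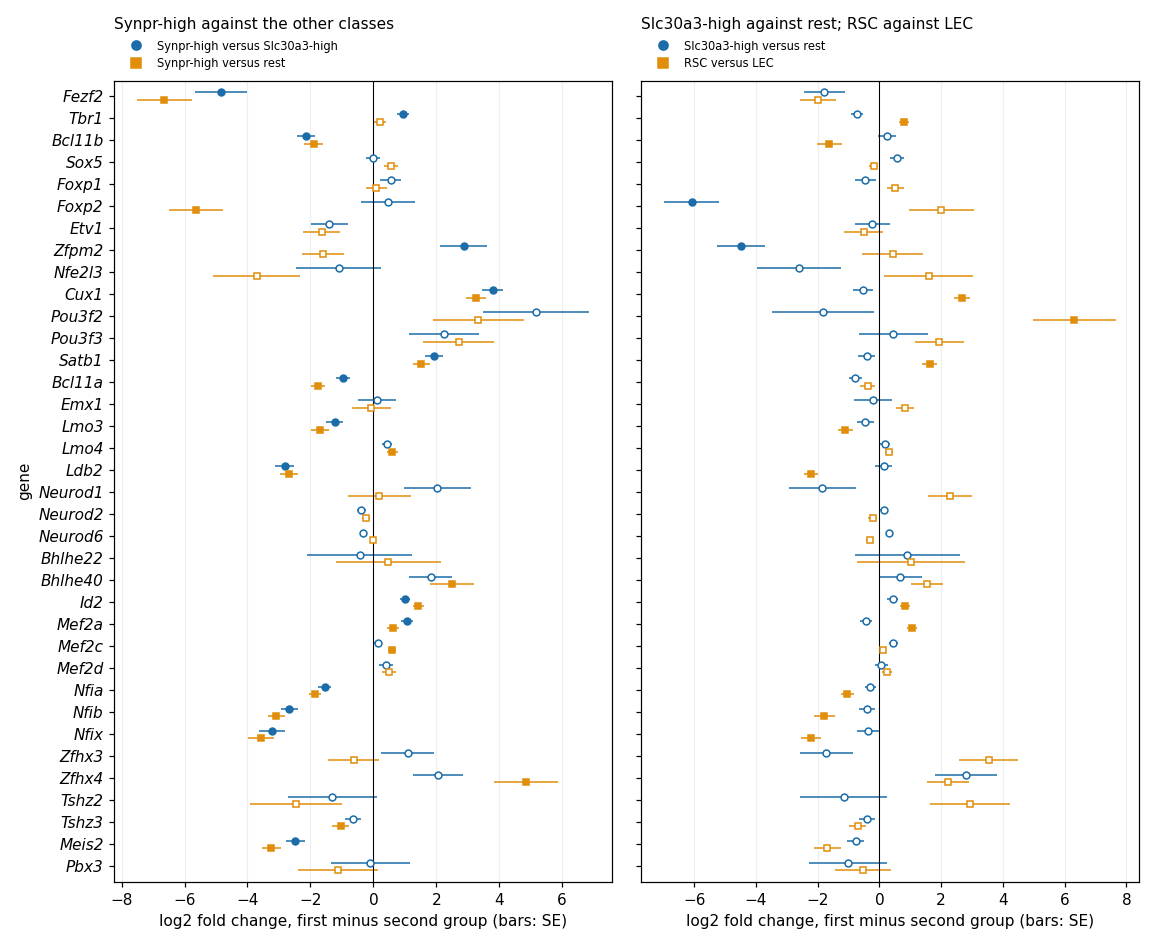
Log2 fold change of each tested factor (horizontal axis, first minus second group, bars show SE), with filled symbols for an adjusted p under 0.05 and open symbols otherwise. The left panel sets Synpr-high cells against each other class and the right panel shows Slc30a3-high cells against the rest and RSC against LEC cells, where 2 and 12 symbols are filled.

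In both comparisons of Synpr-high cells, 13 members were called, in the same direction, with Cux1, Satb1, Id2 and Mef2a higher and Fezf2, Bcl11b, Bcl11a, Lmo3, Ldb2, Nfia, Nfib, Nfix and Meis2 lower. Both comparisons use the same Synpr-high sums, so one set of calls is no separate support for the other. The share of all tested genes called in both was not counted. When only unlabeled cells were used, in all 4 mice, 12 of the 15 calls against Slc30a3-high cells remained, with Tbr1, Zfpm2 and Lmo3 lost. Against the rest, the calls of Satb1, Bhlhe40 and Mef2a were lost among unlabeled cells. Leaving out the blindly sampled mouse gave 15 calls against Slc30a3-high cells and 17 against the rest.

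The projection labels address whether cells reaching the RSC and cells reaching the LEC differ in these factors. RSC cells were Synpr-high in 86.2%, Slc30a3-high in 8.91% and of the rest in 4.86%, while LEC cells were 15.7%, 63.99% and 20.3%, so that the labels and classes hold largely the same split of cells. Between RSC and LEC cells of the 3 projection mice 12 of 36 tested members were called, 6 higher and 6 lower in RSC cells, against 3.95% of 13976 tested genes (1.89% higher and 2.06% lower). The median log2 fold change was 0.37 over the members and -0.001 over all genes. Of the 12, 11 were also called between Synpr-high and Slc30a3-high cells. These comparisons share cells, and the matching share over all called genes was not counted. The next values in threes belong to projection mice 1, 2 and 3.

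Cux1 was at 91.8, 93.4 and 135 CPM in RSC cells, 19.4, 12.3 and 18.3 CPM in LEC cells and 27.6, 20.7 and 35.8 CPM in unlabeled cells. RSC cells were above LEC cells 6.4-fold with no overlap (log2 fold change 2.68 ± 0.27 (SE), adjusted p = 0.000866) and were called so in all 10 alternatives. Satb1 was at 57.7, 50.3 and 57.4 CPM in RSC, 20.4, 21.7 and 11.5 CPM in LEC and 31, 32.2 and 31.2 CPM in unlabeled cells, and higher in RSC cells (log2 fold change 1.63 ± 0.24 (SE), adjusted p = 0.00437). Id2, at 777, 809 and 889 CPM in RSC and 579, 475 and 341 CPM in LEC cells, and Mef2a, at 276, 310.1 and 265 CPM in RSC and 170.0, 124 and 116 CPM in LEC cells, were higher in RSC cells in 3 of 3 mice (1.78-fold, adjusted p = 0.0233, and 2.07-fold, adjusted p = 0.0041). Tbr1 was at 97, 110.1 and 128 CPM in RSC and 77.2, 60.5 and 57 CPM in LEC cells (log2 fold change 0.78 ± 0.16 (SE), adjusted p = 0.0233). Unlabeled cells lay between RSC and LEC cells in Cux1, Satb1 and Tbr1, without overlap with either.

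Pou3f2 was called at very low counts, with 7, 10 and 92 counts in RSC cells and 1 count in all LEC cells. The ratio of its depth-scaled counts was 129.7, which rests on that 1 LEC count and sets no bound on a fold. Most of the RSC counts of Pou3f2 came from projection mouse 3. Its call was lost without any one mouse (adjusted p = 0.0751, 0.181 and 0.268 without projection mice 1, 2 and 3). The POU factor Pou3f3, at 14.3, 19.2 and 17.4 CPM in RSC and 8.66, 3.73 and 0.902 CPM in LEC cells, did not pass (adjusted p = 0.234).

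Lower in RSC cells were Ldb2, Lmo3, Bcl11b and the nuclear factor I genes. Ldb2 was at 39.3, 41.5 and 20.5 CPM in RSC and 143, 146 and 176 CPM in LEC cells (log2 fold change -2.21 ± 0.24 (SE), adjusted p = 0.00133), and was called so in all 10 alternatives. Nfix was at 14.5, 33.4 and 17.6 CPM in RSC and 77.8, 117 and 105 CPM in LEC cells (log2 fold change -2.21 ± 0.32 (SE), adjusted p = 0.00392). Nfib was at 47, 43.2 and 15.7 CPM in RSC and 128, 112 and 125 CPM in LEC cells (log2 fold change -1.79 ± 0.34 (SE), adjusted p = 0.0157). Nfia was at 33.6, 27.4 and 19.98 CPM in RSC and 46.2, 66.6 and 53.6 CPM in LEC cells (log2 fold change -1.04 ± 0.22 (SE), adjusted p = 0.0237). No RSC value of these 3 genes reached an LEC value of the same gene. Lmo3 was at 29.5, 39.6 and 32.5 CPM in RSC and 77.7, 70.7 and 69.2 CPM in LEC cells (log2 fold change -1.103 ± 0.25 (SE), adjusted p = 0.0317). Bcl11b was at 89.2, 104 and 36.1 CPM in RSC and 140.3, 356 and 204 CPM in LEC cells, and its adjusted p of 0.0496 was at the threshold. Fezf2, at 5.01, 11.8 and 1.28 CPM in RSC and 19, 25.8 and 24.6 CPM in LEC cells, and Meis2, at 8.48, 16.4 and 8.43 CPM in RSC and 17.4, 53.5 and 34.4 CPM in LEC cells, were lower in RSC cells in 3 of 3 mice without passing (adjusted p = 0.092 and 0.064).

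Without projection mouse 1, 2 or 3 the number of called members was 10, 3 and 2. Without projection mouse 2 the adjusted p was 0.221 for Tbr1, 0.0619 for Satb1, 0.174 for Id2, 0.106 for Mef2a, 0.233 for Nfia, 0.122 for Nfib, 0.113 for Lmo3 and 0.218 for Bcl11b. Without projection mouse 3 it was 0.0809 to 0.318 for the same 8 genes and 0.0993 for Nfix. Without projection mouse 1 it was 0.0689 for Lmo3 and 0.0775 for Bcl11b. The direction was the same in each of these fits. Foxp2 stood at 3.55, 4.18 and 0 CPM in RSC, 0.887, 0.649 and 0.332 CPM in LEC and 39.1, 16.3 and 22.9 CPM in unlabeled cells. Of the 214 cells of the rest, 144 were unlabeled. Among markers, all 6 core-like genes were higher and all 3 shell-like genes lower in RSC cells. In addition 1 of 6 tested interneuron genes and 1 of 5 tested astrocyte genes were higher, and 1 of 9 tested striatal genes was lower, and their part in the member differences was not tested.

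Within a class no member was called between the labels. Among Synpr-high cells (213 RSC and 45 LEC cells in 3 mice), 0 of 30 tested members and 0 of 12328 genes were called (0.0%). DESeq2 called 11 genes and 0 members. Cux1 was at 105, 117 and 141 CPM in RSC and 59.7, 26.5 and 84.2 CPM in LEC cells of the class, higher in 3 of 3 mice by 1.09 ± 0.50 on the log2 scale. Nfib was at 39.3, 13.9 and 11.6 CPM in RSC and 18.1, 27 and 21 CPM in LEC cells, a difference of -0.02 ± 0.47. Fezf2 had 36 counts in the RSC cells, 32 of them from projection mouse 1, and 0 in the LEC cells. Pbx3 had 95 counts against 0. Over all 438 Synpr-high cells, 1.14% had a count of Fezf2 and 1.83% a count of Pbx3. With so few positive cells, 0 counts in 45 LEC cells set no bound on a fold, and neither gene passed the test.

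Among Slc30a3-high cells (22 RSC and 183 LEC cells), 36 genes (0.292%) and 0 of 30 members were called. DESeq2 called 458 genes and 4 members (Cux1, Foxp1, Pou3f3 and Zfhx4, named after their values were seen). Cux1 had 0 counts in the 22 RSC cells and 188 in the LEC cells, and was not called in the main test. A count of Cux1 was seen in 9.47% of all 359 Slc30a3-high cells. The 22 RSC cells are therefore too few to bound a fold or to show a direction opposite to that over all cells. Zfhx4 was at 16.6, 17.5 and 32.2 CPM in RSC and 2.95, 0.785 and 1.03 CPM in LEC cells (log2 fold change 3.81 ± 0.82 (SE), adjusted p = 0.0787). Foxp1 was at 75.8, 101 and 94.3 CPM in RSC and 25, 40.2 and 36.9 CPM in LEC cells (log2 fold change 1.405 ± 0.39 (SE), adjusted p = 0.15). Neither pair of groups overlapped, and both rest on 6 to 9 RSC cells per mouse. Ldb2 and Nfix, lower in RSC cells of all classes together, were at 171, 99.7 and 115 against 196, 161 and 205 CPM and at 36.3, 119.7 and 143 against 105, 140.0 and 113 CPM within the class (adjusted p = 0.684 and 0.899). The difference between the label effects of the classes, tested as an interaction over 12328 genes, was called for 8 genes and 0 of 30 members.

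**Figure D4:**
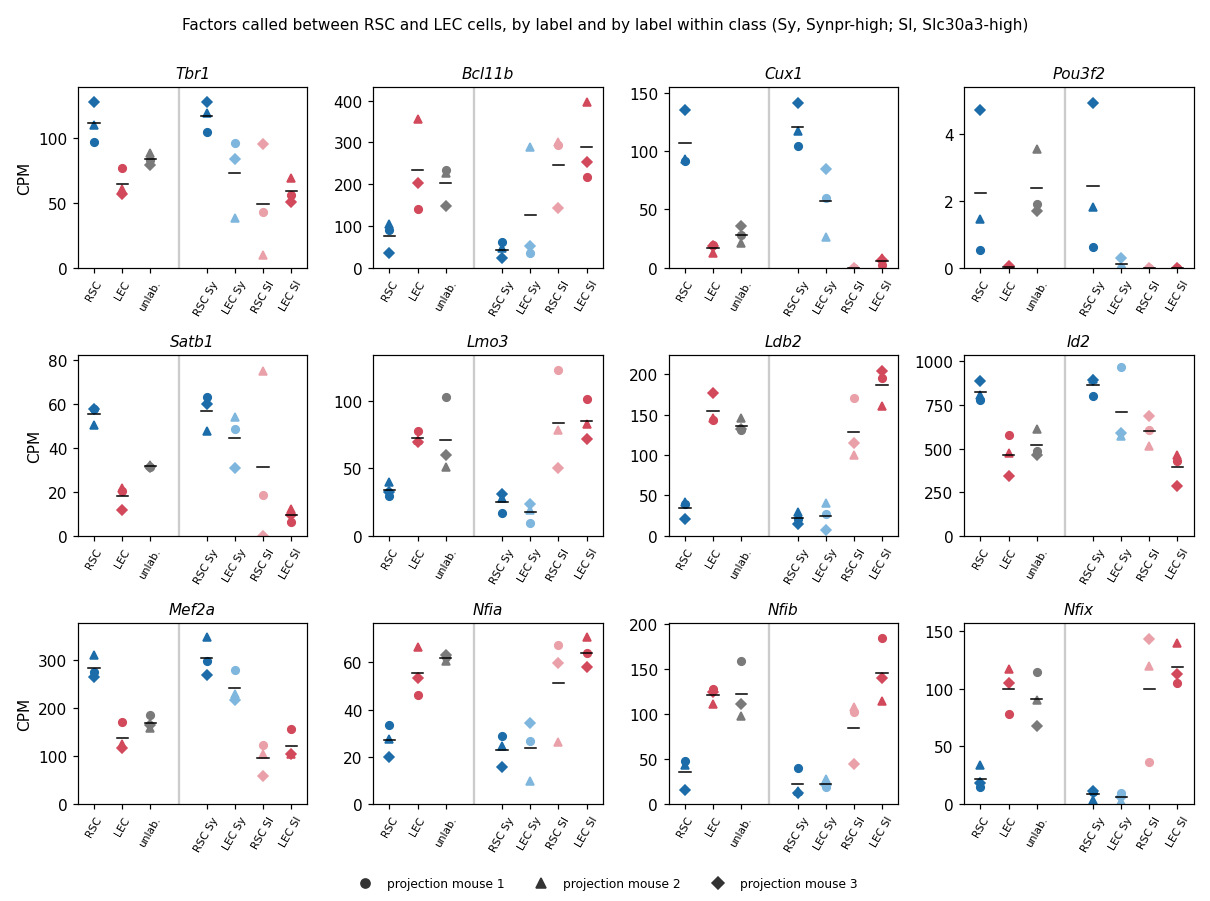
CPM of the 12 members called between RSC and LEC cells, per projection mouse (shape), by label on the left of each panel and by label within class on the right, with black bars at the mean of 3 mice. Cux1 lies at 105 to 141 CPM in RSC and 26.5 to 84.2 CPM in LEC cells that are Synpr-high, and Nfix at 2.33 to 10.6 CPM in both.

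Beside the list, 48 further forebrain and cortical factors were examined, 46 with a row and 32 of them tested. Between Synpr-high and Slc30a3-high cells 4 of the 32 were higher and 1 lower, against 6.71% of all tested genes (3.28% higher and 3.43% lower). Nr2f2, an orphan nuclear receptor, was at 147 ± 13.8 against 7.37 ± 4.05 CPM (log2 fold change 4.32 ± 0.39, adjusted p = 1.48e-05). The others that were higher were Nr4a2, the nuclear receptor long used to mark the claustrum and one of the core-like markers above (log2 fold change 2.99 ± 0.39, adjusted p = 0.000256), Rora (log2 fold change 1.75 ± 0.36, adjusted p = 0.00836) and the E-protein Tcf4 that pairs with Neurod factors (log2 fold change 0.99 ± 0.20, adjusted p = 0.00796). The ciliogenic factor Rfx3 was lower (log2 fold change -1.58 ± 0.43, adjusted p = 0.0433). Between Synpr-high cells and the rest 5 were higher (Nr2f2, Nr4a2, Tcf4, Nr2f1 and Zfp238) and 4 lower, against 8.97% of all tested genes. Tle4, Etv5 and Myt1l were among those lower. Tle4, a corepressor of corticothalamic neurons, was at 11.8 ± 4.52 against 54.7 ± 26.7 CPM (log2 fold change -2.22 ± 0.45, adjusted p = 0.00618). Between Slc30a3-high cells and the rest it was lower and Nr2f2 higher, against 0.778% of all tested genes called. Between RSC and LEC cells Nr2f2, Nr4a2 and Tcf4 were higher and Rfx3 lower, as they were between Synpr-high and Slc30a3-high cells. Of all genes tested between the labels, 3.95% were called.

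Of the 38 members, 13 share exon sequence with another gene in the GENCODE M21 annotation of GRCm38, 12 of them with a gene of the opposite strand, among them Cux1, Nfia, Nfix, Mef2a, Satb1 and Bcl11a. Whether the counting used strand is not given in the sources used here, so reads of those pairs may not have been told apart.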

How the data were processed

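Single-cell RNA-seq counts of 13 plates from 4 mice were analysed. The authors tagged reads to cell barcodes and molecular identifiers and aligned them with STAR, and deposited whole-number counts per gene and cell, which are not normalized. The submitters' processing notes name NCBIM37 and Seurat. The counter is not given in the sources used here. Totals per cell are of the size the study gives for reads per cell, and they are treated here as read counts. The plates were sequenced on 2 flow cells, 3 plates on one and the remaining plates on the other, with different lengths of read 2. Which plates shared one is not given in the sources used here. The blindly sampled mouse has 3 plates, so flow cell and read length may be confounded with that mouse, as its tracer is. Of 368 distinct barcodes 343 occurred in more than 1 plate, and 0 cell names were shared.

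Cells lacking Snap25 or Slc17a7 counts were left out, no doublet caller was run, and counts were summed per mouse and class, label, or label within class, with at least 5 cells a sum. Classes used untransformed CPM of Synpr (200) and Slc30a3 (20). Sums were tested with edgeR 4.0.16 in R 4.3.3 (TMM, filterByExpr, quasi-likelihood test, Benjamini-Hochberg adjustment over all genes tested, threshold 0.05), after the fits had been tested on simulated data. DESeq2 1.42.0 was an alternative, as were other filters, thresholds, normalizations, a mouse block, thinning to 20000 counts a cell (927 cells, 84 shallower ones left out, 67 of them of the blindly sampled mouse) and leaving out each mouse. The replicate is the mouse. Sums of the same mouse are paired, and deviations of same-mouse class sums correlated at 0.118 to 0.498 (median 0.138). Totals per cell ran from 434 to 495406 counts. Counts of 1 cell are not independent draws, so no interval is given for a ratio of summed counts. CPM are not scaled to gene length, and levels of different genes are not compared.

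Members and lists were chosen with earlier results of these data known. The rule for named genes was all 40 members, with full statistics for those past the threshold, and of the other factors counts and the called genes with the largest fold. Results of some other factors are not reported here. Promoter windows are from RefSeq (GRCm38.p6), where 30 members matched and 8 did not.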

Additional observations from a re-analysis of the deposited data

Results flagged for a closer look

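In 63 groups of 4 mice (the 3 classes of each of 21 members called between classes), 7 had 1 mouse whose gap to the nearest other mouse exceeded Dixon's 95% critical value as a share of the range, and chance gives about 1 in 20. Projection mouse 1 stood apart for Fezf2 in Synpr-high cells, at 1.77 CPM against 0 to 0.109 CPM in the other mice, and for Foxp2 in Synpr-high cells, at 2.54 CPM against 0 to 0.329 CPM. The same mouse was highest for Meis2 in the rest, at 119.7 CPM against 75.9 to 80.0 CPM, and for Mef2a in Slc30a3-high cells, at 142 CPM against 105 to 111 CPM. Projection mouse 2 was highest for Bcl11b in Slc30a3-high cells, at 368 CPM against 226 to 243 CPM. The blindly sampled mouse was highest for Id2 in Synpr-high cells, at 1111 CPM against 815 to 857 CPM, and for Zfhx4 in the rest, at 4.62 CPM against 0 to 0.662 CPM.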

How the results depend on the processing

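No called member changed direction under any alternative run. Calls were kept in 224 of 240 pairs of member and alternative between Synpr-high and Slc30a3-high cells, 280 of 303 between Synpr-high cells and the rest, 26 of 31 between Slc30a3-high cells and the rest and 96 of 119 between RSC and LEC cells. In the order of these comparisons, with main counts of 879, 1176, 102 and 552 genes, leaving out 1 mouse gave 351 to 1048, 502 to 1314, 12 to 76 and 59 to 391 called genes, and 11 to 15, 13 to 17, 0 to 1 and 2 to 10 called members. DESeq2 called 1326 genes in the first, 374 in the third and 1145 in the last. With the mouse as a replicate block 1413, 1775 and 249 genes were called in the class comparisons, and beside the members named above it changed 1 other member call, that of Bhlhe40 between RSC and LEC cells (adjusted p = 0.0195). Unlabeled cells alone gave 461 and 697 genes in the comparisons of Synpr-high cells. Between Slc30a3-high cells and the rest, the called members were Fezf2, Foxp2, Mef2c and Zfpm2 in unlabeled cells and Foxp2, Mef2c, Tbr1 and Zfpm2 in thinned cells. The share of all genes called in those 2 fits is not given here, so no excess of members is read from them. Thinned cells gave 837 genes between RSC and LEC cells. Within Synpr-high cells DESeq2 called 11 genes, no filter 2 and leaving out 1 mouse 0 to 1. Within Slc30a3-high cells (36 genes) DESeq2 called 458 genes and 4 members, no filter 103 and 3 members (Cux1, Pou3f3 and Zfhx4), thinned cells 68 and 1 member (Zfhx4), the replicate block 15, a Synpr threshold of 400 CPM 16, an Slc30a3 threshold of 50 CPM 17, and leaving out 1 mouse 1 to 8. The cause of these moves was not tested. Depth limits the genes at a few counts, such as Pou3f2, Pbx3, Emx2 and Lhx2, Zfhx4 in the rest and Zfpm2 in Slc30a3-high cells, and the 22 RSC cells that are Slc30a3-high.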
